A study of Mus musculus with 15 samples.

Results

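Gene expression after 9-cis retinoic acid was set against gene expression after AM580 and CD3254 given together, in cells of the mouse pancreatic acinar line 266-6. The comparison held 6 of the 15 libraries of the series, which were the 3 labelled 9-cis retinoic acid and the 3 labelled with both AM580 and CD3254, called the joint treatment here, and it covered all genes. 9-cis retinoic acid is a single compound that binds the retinoic acid receptors (RAR) and the retinoid X receptors (RXR). AM580, a synthetic aromatic amide, is an agonist selective for RARα, and CD3254 is a synthetic agonist of RXR, so the joint treatment also reaches both receptor families. The other 9 libraries were AM580 alone, CD3254 alone and the vehicle DMSO, with 3 libraries each. Every group was grown as a monolayer in medium with 10% fetal bovine serum, kept in stripped medium for 24 h and exposed to its ligand for a further 24 h, and total RNA was taken with TRIzol reagent. The line is a single established line of acinar tumour cells, the labels name no allele or transgene, and they do not say whether replicates were separate cultures. They also give no ligand concentrations, so the compounds are compared as they were given and not at matched doses.

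RAR and RXR bind DNA as a heterodimer at paired copies of a short hexamer. A ligand of RAR releases corepressors and lets the pair activate its targets, and an RXR ligand adds to this once RAR is occupied. RXR is also the partner of the liver X receptors (LXR), which control cholesterol efflux and fatty acid synthesis, and of the peroxisome proliferator-activated receptors (PPAR), which control fatty acid oxidation, and both of these partnerships can be switched on by an RXR ligand alone. Classical targets of RAR include Cyp26b1, an enzyme that oxidises and clears retinoic acid, Rarb, a RAR itself, and Dhrs3, which turns retinaldehyde back to retinol.

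The start regions of Rarb, Cyp26b1 and Cpt1a are shown because Rarb and Cyp26b1 are RAR targets that behaved unlike each other in this comparison, and Cpt1a is the lipid gene with a promoter in the sequence table and the smallest unadjusted p. Each is the RefSeq window of GRCm38.p6 from 250 bases before to 50 bases after the annotated start, 5′ to 3′ on the gene's strand. Capitals mark direct repeats with a spacer of 5 bases, or a lone hexamer where no repeat was found. The search took the hexamer AGGTCA and its variant AGTTCA, as well as GGGTCA and its variant GGTTCA, on both strands, and matches may overlap other motifs. The Rarb window is chr14:16575427-16575726 on the minus strand, that of Cyp26b1 is chr6:84593761-84594060 on the minus strand and that of Cpt1a is chr19:3323051-3323350 on the plus strand.
Rarb: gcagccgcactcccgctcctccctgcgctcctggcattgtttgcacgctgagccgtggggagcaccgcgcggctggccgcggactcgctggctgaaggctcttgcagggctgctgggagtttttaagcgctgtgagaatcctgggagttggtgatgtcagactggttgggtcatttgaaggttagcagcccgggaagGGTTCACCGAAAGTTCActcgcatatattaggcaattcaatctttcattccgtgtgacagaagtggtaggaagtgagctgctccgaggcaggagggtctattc
Cyp26b1: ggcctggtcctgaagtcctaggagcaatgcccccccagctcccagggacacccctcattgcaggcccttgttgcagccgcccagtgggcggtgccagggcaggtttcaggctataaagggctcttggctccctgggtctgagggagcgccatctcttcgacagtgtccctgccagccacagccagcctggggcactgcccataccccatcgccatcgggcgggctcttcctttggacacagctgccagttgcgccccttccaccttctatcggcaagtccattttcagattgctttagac
Cpt1a: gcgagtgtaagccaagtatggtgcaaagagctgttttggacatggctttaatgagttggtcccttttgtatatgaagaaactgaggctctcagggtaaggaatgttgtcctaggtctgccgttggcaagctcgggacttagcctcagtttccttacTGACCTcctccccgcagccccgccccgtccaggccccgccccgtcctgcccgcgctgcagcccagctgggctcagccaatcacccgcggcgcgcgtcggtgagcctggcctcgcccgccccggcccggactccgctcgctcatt
The Rarb window held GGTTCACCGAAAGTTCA, whose first base is at position -53 from the start. Such a repeat was present in 32 of the 32851 windows in the table (0.0974%). The Cyp26b1 window held none of the 4 hexamers, and the Cpt1a window held TGACCT at position -94, which is AGGTCA on the other strand. The windows of Dhrs3, the RAR target that overlapped between the treatments as Rarb did, also held none of the 4. Any of the hexamers was present in 43.7% of all windows. A match describes letters only, and the absence of one says nothing of a factor bound elsewhere. Of the 49 tested genes that the text could name by rule, 36 had a window by symbol, and Angptl4 was not among them.

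The libraries differed in ways that touch the comparison. 9-cis retinoic acid replicate 3 held 14600962 gene reads, and the other 14 libraries held 28501170 to 46801058. In that library 63.0% of reads had no gene, against 18.1% to 28.5% in the other 14, and 19.2% of its gene reads lay on rRNA-like genes, against at most 2.36%. The first principal component of log2 CPM (read counts divided by TMM-scaled library totals) carried 48.3% of the variance and parted a set of 5 libraries, 1 of each treatment, from a set of 10. The 5-library set held 9-cis retinoic acid replicate 1 and joint replicate 2, which had summed levels of 20472 and 21680 CPM over 31 hypoxia-induced genes, against 3473 to 4768 CPM in the other 4 libraries compared. The set entered the model as a term. It was read from the same counts that are tested, so the counts of genes called and of the main lists are also given without it. Of 14 acinar markers 11 averaged at least 1 CPM, with sums of 6917 to 11596 CPM in 9-cis retinoic acid libraries and 7495 to 10813 CPM in joint libraries, while Amy2a5, Cpb1 and Pnlip averaged less than 1 CPM. All 6 immune and endothelial markers averaged less than 1 CPM, the endocrine genes Ins1 and Sst were at 0 in all 6 libraries, and Chga, at 165.6 to 352 CPM, was the only endocrine marker above 1 CPM. Of 6 ductal markers 4 averaged at least 1 CPM, with sums of 59.5 to 85.1 CPM in 9-cis retinoic acid libraries and 54.7 to 85.3 CPM in joint libraries. Of 6 stellate and fibroblast markers 3 did, with sums of 20.0 to 24.8 CPM in 9-cis retinoic acid libraries and 22.3 to 23.9 CPM in joint libraries.

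Cyp26b1 (ENSMUSG00000063415, chr6:84571414-84593908, minus strand, GRCm38) was the 1 gene of 16736 tested that differed between the treatments (0.00598% of genes, lower with 9-cis retinoic acid). It had 16.8, 3.58 and 7.35 CPM in replicates 1 to 3 of 9-cis retinoic acid, against 53.3, 127 and 35.5 CPM in replicates 1 to 3 of the joint treatment. All 3 libraries of 9-cis retinoic acid lay below all 3 joint libraries, and within each treatment the library of the 5-library set was the highest. The fitted level was lower with 9-cis retinoic acid, that of the joint treatment being 8.19 times as high, a log2 change of -3.03 ± 0.28 (SE, 95% interval -3.63 to -2.44, n = 3 each, edgeR quasi-likelihood FDR = 0.000574). Without 9-cis retinoic acid replicate 3 the change was -3.29 (FDR = 0.000686). Within the 10-library set it was -3.09 and did not pass (FDR = 0.0916), in a fit of the 6 compared libraries alone it was -3.02 and did not pass (FDR = 0.0545), and between the 2 libraries of the 5-library set it was -2.91, with no test. Without the library set term the change was -2.95 and did not pass (FDR above 0.99). In that fit 0 genes passed, 173 had an unadjusted p under 0.05, of which 77 were lower (0.46%), and DESeq2 without the term also gave 0. In bulk RNA fewer cells of a kind and less RNA per cell cannot be told apart, here and for every gene that follows.

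0 genes were higher with 9-cis retinoic acid at FDR 0.05 in edgeR, DESeq2 also gave 0 higher, and at an unadjusted p under 0.05 edgeR had 365 genes higher (2.18%) and 203 lower (1.21%). DESeq2 with the same term gave 6 genes, all lower with 9-cis retinoic acid, namely Angptl4, Abca1, Abcg1, Cpt1a, Fmo5 and Cyp26b1. An alternative chosen after the data were seen, limma voom with a weight for the quality of each library, gave low weights to 9-cis retinoic acid replicate 3 (0.217), joint replicate 3 (0.339) and AM580 replicate 1 (0.0810) and called 39 genes lower (0.233%) and 12 higher (0.0717%). A second one left out 9-cis retinoic acid replicate 3 and AM580 replicate 1 together and called 7 genes lower, which were Cyp26b1, Angptl4, Cpt1a, Abca1, Acaca, Elovl5 and Gramd1b. The calls of the weighted fit among the genes described are Cyp26b1, Angptl4, Cpt1a, Abca1, Abcg1, Lpcat3, Scd2, Acsl3, Elovl5, Acaca, Lpl, Fmo5, Enpp1, Acot1, Utp14b, Gramd1b, Pdk4, Nrp2, H19 and Zim1, each lower with 9-cis retinoic acid. Of these, Pdk4 was the closest to the threshold (FDR = 0.0493). The 12 genes called higher are not named here, and the genes described were chosen in part for the joint treatment.

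**Figure D1:**
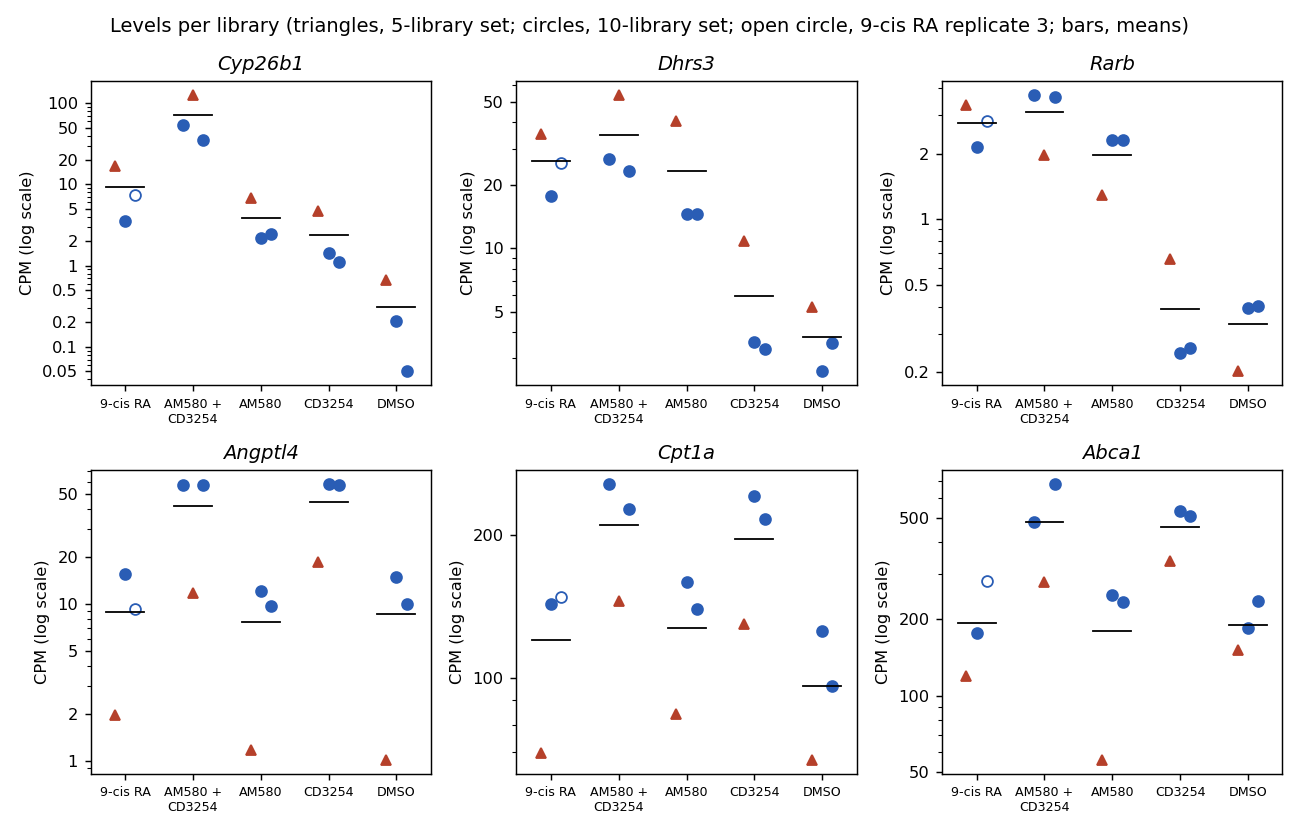
Level of 6 genes in each library (CPM, log axis; each panel has its own range), with 9-cis retinoic acid at the left and DMSO at the right; bars are means of 3 libraries, triangles the 5-library set, circles the 10-library set and the open circle 9-cis retinoic acid replicate 3. Cyp26b1 lies between 3.58 and 16.8 CPM with 9-cis retinoic acid and between 35.5 and 127 CPM with the joint treatment, while the Rarb and Dhrs3 points of the 2 treatments overlap.

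The changes of Dhrs3 and Rarb were smaller than that of Cyp26b1 and did not pass. Dhrs3 had 35.2, 17.8 and 25.5 CPM with 9-cis retinoic acid, against 26.8, 54.1 and 23.5 CPM with the joint treatment, and the groups overlapped. Its log2 change was -0.35 ± 0.21 (95% interval -0.80 to 0.10). It was -0.56 without 9-cis retinoic acid replicate 3 (unadjusted p = 0.0168), -0.18 without 9-cis retinoic acid replicate 1 and -0.56 with library weights (FDR = 0.0789), below 0 in each of the 21 settings tried. Rarb had 3.33, 2.15 and 2.82 CPM with 9-cis retinoic acid, against 3.71, 1.97 and 3.62 CPM with the joint treatment, also with overlap. The change of Rarb was -0.14 ± 0.39 (-0.98 to 0.69), and its sign turned to 0.74 between the libraries of the 5-library set, against -0.58 in the 10-library set. Neither gene passed (FDR = 0.888 for Dhrs3 and 0.951 for Rarb), and the intervals allow a level of Dhrs3 or Rarb with 9-cis retinoic acid somewhat below or above the joint one. The interval of Cyp26b1 lies wholly below both.

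The level of Cyp26b1 relative to Dhrs3 in the same library was 0.477, 0.201 and 0.289 with 9-cis retinoic acid, against 1.99, 2.34 and 1.51 with the joint treatment. The mean log2 ratio differed by -2.66, with no overlap, in an exact permutation test that gave p = 0.1, the smallest value 3 against 3 libraries allow (two-sided). Relative to Rarb the difference was -2.90 (exact permutation p = 0.1). The same ratios over Dhrs3 overlapped for Angptl4 (-2.0, exact permutation p = 0.3) and for Cpt1a (-0.47, exact permutation p = 0.5). Over the 4 ratios the Benjamini-Hochberg values were 0.2, 0.2, 0.4 and 0.5. These overlaps and permutations pooled the library sets. Within each set both ratios were lower with 9-cis retinoic acid, without overlap, which was not tested. Angptl4 over Dhrs3 had 0.0554 with 9-cis retinoic acid against 0.217 with the joint treatment in the smaller set. In the larger set it had 0.866 and 0.362 against 2.13 and 2.43. Cpt1a over Dhrs3 had 1.98 against 2.69 in the smaller set, and 8.03 and 5.82 against 9.55 and 9.63 in the larger.

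Of 23 tested RAR targets, 12 lay below 0 on the log2 scale, where 46.4% of all genes did, and the median was -0.01 against 0.02 for all genes. Cyp26b1 and Cd38 were the 2 members lower at an unadjusted p under 0.05 (1.21% of all genes), and none was higher (2.18% of all genes). Without the library set term 1 was lower (0.46%). Cd38, an enzyme that hydrolyses NAD, had 2.66, 5.34 and 3.51 CPM with 9-cis retinoic acid, against 7.15, 5.12 and 5.52 CPM with the joint treatment, a change of -0.64 ± 0.29 (FDR = 0.888). The groups overlapped, although within each library set the 9-cis retinoic acid values were the lower ones. Among 24 tested genes of retinoid metabolism 11 lay below 0 (46.4% of all genes) and Cyp26b1 alone was past an unadjusted p of 0.05. The retinaldehyde dehydrogenases Aldh1a2 and Aldh1a3, which make retinoic acid, had changes of 0.07 ± 0.17 and 0.01 ± 0.21, and Rdh10, which supplies them with retinaldehyde, had -0.24 ± 0.15. The retinoic acid carrier Crabp2 averaged less than 1 CPM in both groups, and Cyp26a1, Cyp26c1, Crabp1, Dhrs9 and Rxrg were too low to be tested.

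Fmo5, a flavin monooxygenase, and Enpp1, a membrane pyrophosphatase, were RAR-responsive genes of this line with a smaller difference. Fmo5 had 9.38, 15.2 and 17.2 CPM with 9-cis retinoic acid, against 38.2, 15.6 and 28.3 CPM with the joint treatment. The joint library of the 5-library set reached the range of 9-cis retinoic acid, and within each library set the groups stood apart. The change was -0.95 ± 0.19 (FDR = 0.700), or -0.99 without 9-cis retinoic acid replicate 3, and DESeq2 with the term called it (FDR = 0.00522). Enpp1 had 37.2, 37.3 and 48.9 CPM with 9-cis retinoic acid, against 52.5, 53.2 and 58.4 CPM with the joint treatment, without overlap, a change of -0.42 ± 0.13 (FDR = 0.888). The library weights called Enpp1 at -0.51 (FDR = 0.0107).

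**Figure D2:**
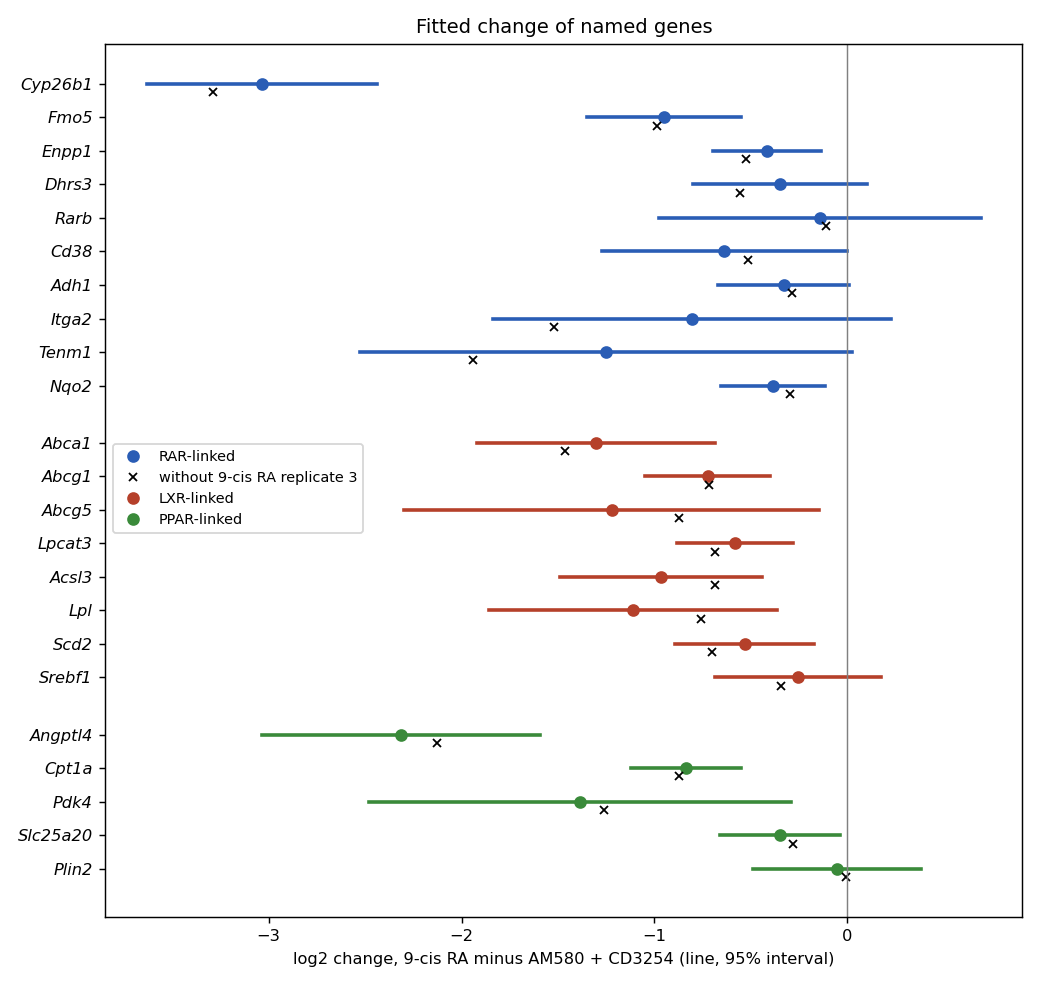
Fitted log2 change, 9-cis retinoic acid minus joint treatment, of named genes grouped as RAR-linked, LXR-linked and PPAR-linked; points are the fit with the library set term, lines 95% intervals and crosses the fit without 9-cis retinoic acid replicate 3. Cyp26b1 at -3.03 and Angptl4 at -2.31 lie furthest from 0, and the lines of Rarb, Dhrs3, Srebf1 and Plin2, among others, cross 0.

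Of the PPAR-linked genes, Angptl4 and Cpt1a came closest to the threshold after Cyp26b1. Angptl4 (chr17:33773750-33781830, minus strand), a secreted inhibitor of lipoprotein lipase, had 1.95, 15.4 and 9.24 CPM with 9-cis retinoic acid, against 57.1, 11.8 and 57.1 CPM with the joint treatment. The libraries of the 5-library set were the lowest in each group, so the groups overlapped over all 6 libraries and stood apart within each set. The change was -2.31 ± 0.34 (95% interval -3.03 to -1.60, FDR = 0.0638), and it was -2.13 without 9-cis retinoic acid replicate 3, -2.18 in the 10-library set and -2.56 in the 5-library set. DESeq2 with the term called Angptl4 (FDR = 2.96e-08), and so did the library weights (FDR = 0.000274).

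Cpt1a (chr19:3322334-3385733, plus strand), which admits fatty acids to mitochondria for oxidation, had 69.8, 143 and 148 CPM with 9-cis retinoic acid, against 256, 146 and 226 CPM with the joint treatment. Here too the 5-library set gave the lowest value of each group, and the groups were apart within each set. The change was -0.83 ± 0.13 (95% interval -1.12 to -0.55, FDR = 0.115), and -0.87 without 9-cis retinoic acid replicate 3. DESeq2 with the term called Cpt1a (FDR = 6.74e-06).

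Of 32 tested PPAR targets 25 lay below 0, where 46.4% of all genes did, with a median of -0.17. At an unadjusted p under 0.05, 7 were lower (1.21% of all genes), or 6 without the library set term (0.46%), and none was higher (2.18%). Within both library sets, 9-cis retinoic acid lay below the joint treatment for 10 members (7.49% of all genes did so) and above it for 1 (9.86% of all genes). The members past an unadjusted p of 0.05 beside Angptl4 and Cpt1a were Acot1, Acot2, Acadl, Pdk4 and Slc25a20. Pdk4, a kinase that shuts off pyruvate dehydrogenase, had 0.542, 0.192 and 0.257 CPM with 9-cis retinoic acid, against 1.16, 0.896 and 0.649 CPM with the joint treatment (-1.39 ± 0.51), all below 2 CPM. Slc25a20, the mitochondrial carnitine carrier, had 22.5, 27.4 and 22.2 CPM with 9-cis retinoic acid, against 32.4, 31.9 and 27.6 CPM with the joint treatment (-0.35 ± 0.14). Both genes stood apart over all 6 libraries and neither passed (FDR = 0.888 each). Pdk4 passed with library weights (-1.99, FDR = 0.0493), and its change was -2.21 without 9-cis retinoic acid replicate 1 and -0.95 without 9-cis retinoic acid replicate 2. Acadl, an acyl-CoA dehydrogenase, had a change of -0.41 ± 0.12, and the thioesterases Acot1 (-0.99 ± 0.28) and Acot2 (-0.62 ± 0.20) are near-identical paralogs whose reads may be shared, and Acot2 had -0.35 without 9-cis retinoic acid replicate 3. Plin2, which coats lipid droplets, had a change of -0.05 ± 0.20, with an interval of -0.49 to 0.38.

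LXR targets had the lowest median of the lists chosen by function. Of 24 tested, 17 lay below 0, where 46.4% of all genes did, and the median was -0.35. At an unadjusted p under 0.05, 11 were lower (1.21% of all genes), or 6 without the library set term (0.46%), and none was higher (2.18%). Within both library sets 10 lay below the joint treatment (7.49% of all genes) and 1 above (9.86%). Without 9-cis retinoic acid replicate 3 the median was -0.42 and 9 members were lower at that p, where 3.16% of all genes were. None passed FDR 0.05 in edgeR with the term. Abca1 and Abcg1, which export cholesterol from cells, were called by DESeq2 (FDR = 0.0280 each). With library weights 9 members were called lower, where 0.233% of all genes were.

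Abca1 had 119.5, 177 and 281 CPM with 9-cis retinoic acid, against 480.2, 279 and 681 CPM with the joint treatment (-1.30 ± 0.29, and -1.46 without 9-cis retinoic acid replicate 3). Only the joint library of the 5-library set reached into the range of 9-cis retinoic acid. Abcg1 had 30.9, 44.5 and 43.0 CPM with 9-cis retinoic acid, against 83.2, 53.2 and 58.6 CPM with the joint treatment, without overlap (-0.72 ± 0.15). Lpcat3, which puts polyunsaturated chains into phospholipids, had 104, 94.1 and 109.7 CPM with 9-cis retinoic acid, against 145, 205 and 121 CPM with the joint treatment, also without overlap (-0.58 ± 0.14).

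Lpl, the lipoprotein lipase that Angptl4 inhibits, had 8.43, 9.26 and 4.11 CPM with 9-cis retinoic acid, against 26.8, 10.6 and 14.4 CPM with the joint treatment (-1.11 ± 0.35). Its lowest value was that of 9-cis retinoic acid replicate 3, and without that library the change was -0.76. Acsl3, a fatty acyl-CoA synthetase, had 65.2, 71.3 and 42.2 CPM with 9-cis retinoic acid, against 149, 86.6 and 128 CPM with the joint treatment (-0.97 ± 0.24). Replicate 3 again gave the lowest value, and the change without it was -0.69. Acsl3 overlaps Utp14b on the same strand, so the -1.0 ± 0.33 of Utp14b may rest in part on shared reads. The desaturase Scd2, which has close paralogs, had 1655, 901 and 1309.5 CPM with 9-cis retinoic acid, against 1663, 2752 and 1319.6 CPM with the joint treatment (-0.53 ± 0.17). The groups overlapped, and within each library set the joint values were the higher ones. Srebf1, the transcription factor that drives fatty acid synthesis, had -0.26 ± 0.20 with an interval of -0.69 to 0.17, and the LXR gene Nr1h3 itself had 0.29 ± 0.16. The elongase Elovl5 (-0.45 ± 0.12) had an FDR of 0.00337 with library weights, and the carboxylase Acaca (-0.47 ± 0.22) moved to -0.82 without 9-cis retinoic acid replicate 3.

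Genes of the single agonists were ranked by their p against DMSO among those above DMSO with AM580, or with CD3254, and the first 50 were taken. The contrasts that rank them use none of the 6 compared libraries as a group, but they come from the fit over all 15 libraries, which shares its spread and library set term. Genes also had to average at least 1 CPM over all 15 libraries, a filter that includes the 6 compared. Tenm1 averaged 0.70 CPM with AM580, 0.37 with CD3254 and 0.11 with DMSO, and Rarb 1.96, 0.39 and 0.33. Both average below 1 CPM over those 9 libraries, so they entered the AM580 list only through the compared libraries. Of the 50 only 5 passed FDR 0.05 for AM580 and 4 for CD3254, so most members are ranked high without having passed. Of the 50 ranked first for CD3254, 44 lay below 0 for 9-cis retinoic acid minus joint treatment, where 46.4% of all genes did. At an unadjusted p under 0.05, 27 were lower (1.21% of all genes) and none was higher (2.18%), and the median was -0.44. Within both library sets 27 lay below the joint treatment (7.49% of all genes) and 1, Trib3, above (9.86%). The median was -0.36 without 9-cis retinoic acid replicate 3, -0.45 in the 10-library set and -0.40 in the 5-library set. Without the replicate 25 were lower at that p (3.16% of all genes), and without the library set term 14 were lower (0.46%).

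Of the 50 ranked first for AM580, 28 lay below 0, where 46.4% of all genes did. Tenm1 (-1.25) and Rarb (-0.14), which entered through the compared libraries, are counted here and below, and no count without them was made. At an unadjusted p under 0.05, 8 of the 50 were lower, where 1.21% of all genes were, and 4 higher, where 2.18% were. Tenm1 and Rarb were not past that p. The median of the 50 was -0.07. Without the library set term 4 were lower. The median turned to 0.0046 without 9-cis retinoic acid replicate 1 and to 0.020 without joint replicate 1. The lists share 8 genes, which are 16% of the AM580 list and 16% of the CD3254 list, and 7 of the 8 were lower at that p, Cyp26b1, Fmo5, Enpp1 and Cd38 among them. The 42 genes ranked for AM580 and not in the other list had a median of 0.02, with 1 lower and 4 higher, and 20 below 0. The 42 genes ranked for CD3254 and not in the other list had a median of -0.40, with 20 lower and none higher, and 36 below 0. The lists differ in these counts, and the difference between them was not tested.

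**Figure D3:**
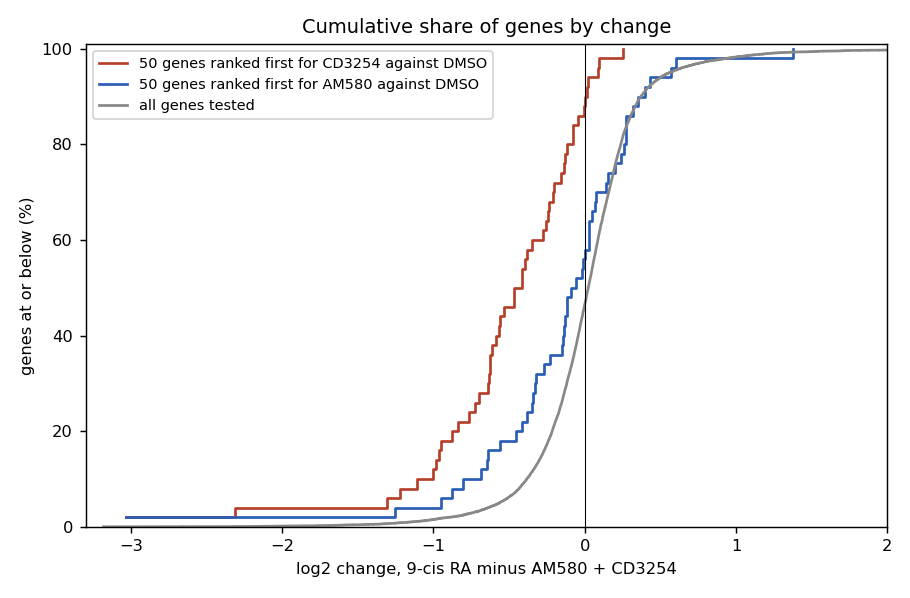
Cumulative share of genes (percent) against the fitted log2 change, 9-cis retinoic acid minus joint treatment, for the 50 genes ranked first for CD3254 against DMSO, the 50 ranked first for AM580 against DMSO and all 16736 genes tested; the axis stops at 2, beyond which a few of all genes lie. The CD3254 curve runs to the left of the other curves, with a median of -0.44 against -0.07 for the AM580 genes and 0.02 for all genes. The AM580 curve includes Tenm1 and Rarb.

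Both treatments were also set against DMSO, and as these comparisons share the DMSO libraries only the values are given side by side. Cyp26b1 had log2 changes of 4.94 ± 0.36 with 9-cis retinoic acid and 7.98 ± 0.38 with the joint treatment. Dhrs3 had 2.79 ± 0.23 with 9-cis retinoic acid and 3.14 ± 0.23 with the joint treatment, and Rarb had 3.07 ± 0.45 with 9-cis retinoic acid and 3.21 ± 0.45 with the joint treatment. Fmo5 had 1.85 ± 0.20 with 9-cis retinoic acid and 2.80 ± 0.20 with the joint treatment. Each of these genes was above DMSO in both treatments (edgeR FDR of 0.0296 or less).

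Among the lipid genes, Angptl4, Abca1 and Abcg1 stood near DMSO with 9-cis retinoic acid. Pdk4 (0.59 ± 0.55) and Abcg5 (0.40 ± 0.52) lay further above it with wide SE, and Lpl (-0.18 ± 0.34) lay below. Angptl4 had 0.20 ± 0.33 with 9-cis retinoic acid and 2.51 ± 0.34 with the joint treatment, against DMSO. For Cpt1a the values were 0.28 ± 0.13 with 9-cis retinoic acid and 1.12 ± 0.13 with the joint treatment. Abca1 had -0.05 ± 0.28 with 9-cis retinoic acid and 1.25 ± 0.29 with the joint treatment, and Abcg1 had -0.01 ± 0.15 with 9-cis retinoic acid and 0.72 ± 0.15 with the joint treatment. Over the 50 genes ranked first for CD3254 the median against DMSO was 0.28 with 9-cis retinoic acid and 0.72 with the joint treatment. Over the 50 ranked first for AM580 it was 0.74 with 9-cis retinoic acid and 0.79 with the joint treatment.

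Levels with the single agonists place 9-cis retinoic acid among the 5 groups. Cyp26b1 averaged 9.24 ± 6.80 CPM with 9-cis retinoic acid (SD, n = 3 here and below), 71.8 ± 48.3 CPM with the joint treatment, 3.84 ± 2.65 CPM with AM580, 2.41 ± 1.96 CPM with CD3254 and 0.307 ± 0.315 CPM with DMSO. The joint treatment was the highest, followed in order by 9-cis retinoic acid, AM580, CD3254 and DMSO, but the ranges of mean ± SD overlap for 9-cis retinoic acid with AM580 and with CD3254, for AM580 with CD3254 and for CD3254 with DMSO. These SD span both library sets, and within each set the order held without overlap. In the 5-library set 9-cis retinoic acid had 16.8 CPM, AM580 6.90, CD3254 4.67 and DMSO 0.659. In the fit with the set term CD3254 was above DMSO (2.99 ± 0.37, edgeR FDR = 0.0105), as was AM580 (3.73 ± 0.36, edgeR FDR = 0.000594). Angptl4 averaged 8.87 ± 6.75 CPM with 9-cis retinoic acid, 42.0 ± 26.2 CPM with the joint treatment, 7.68 ± 5.77 CPM with AM580, 44.7 ± 22.8 CPM with CD3254 and 8.66 ± 7.05 CPM with DMSO. The joint treatment and CD3254 formed the upper levels of Angptl4, and 9-cis retinoic acid, AM580 and DMSO the lower ones, within each of which the means differ by less than their spread. Cpt1a averaged 120.4 ± 43.9 CPM with 9-cis retinoic acid, 209 ± 57.2 CPM with the joint treatment, 128 ± 39.1 CPM with AM580, 196 ± 58.3 CPM with CD3254 and 96.5 ± 29.1 CPM with DMSO. The joint treatment and CD3254 were again the upper pair, and 9-cis retinoic acid and AM580 differ by less than their spread.

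**Figure D4:**
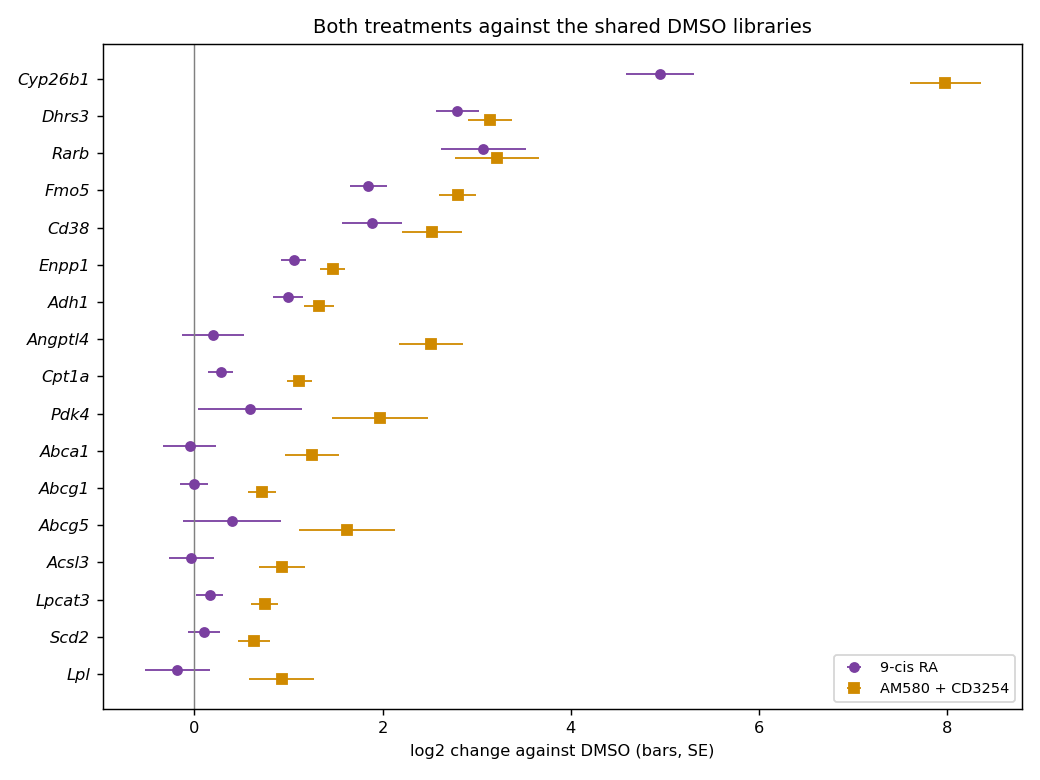
Fitted log2 change against DMSO of 17 genes with 9-cis retinoic acid (circles) and the joint treatment (squares); bars are SE, and both comparisons use the same DMSO libraries. Both symbols lie well above 0 for Cyp26b1, Dhrs3, Rarb and Fmo5, whereas for Angptl4, Abca1 and Abcg1 the circles lie near 0, at 0.20, -0.05 and -0.01.

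The receptors themselves did not pass. Rara had 0.17 ± 0.17, Rarg 0.26 ± 0.18, Rxra 0.19 ± 0.16 and Rxrb 0.21 ± 0.16. Of 5 tested receptors 4 lay above 0 (8968 of all 16736 genes), with a median of 0.19. Without 9-cis retinoic acid replicate 3 the median was 0.03, 2 of the 5 lay below 0, and Rara had 0.03 and Rarg 0.12. Rxra had its highest value, 119 CPM, in 9-cis retinoic acid replicate 3, and its change was -0.03 without that library. Rxrb had 112, 126 and 122 CPM with 9-cis retinoic acid, against 107, 103 and 102 CPM with the joint treatment, without overlap. Of the lipid-sensing partners, Nr1h2 had 0.34 ± 0.21, Ppard 0.37 ± 0.19 and 0.10 without replicate 3, Ppara -0.02 ± 0.26 and Pparg -0.25 ± 0.35. Among 11 tested partner receptors none was past an unadjusted p of 0.05, where 1.21% of all genes were lower and 2.18% higher. Of 15 tested receptor cofactors none was past it, and 9 lay below 0 (46.4% of all genes) with a median of -0.11. Without 9-cis retinoic acid replicate 3, 13 of the 15 lay below 0 and the median was -0.41, against 0.03 for all genes. In that fit 3 cofactors were lower at that p, where 3.16% of all genes were.

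Genes that an earlier look at these data had tied to the joint treatment were chosen in part on the joint libraries, so their direction here is no independent evidence. All 21 lay below 0 (46.4% of all genes), with a median of -0.64, and they include the RAR-responsive genes above. At an unadjusted p under 0.05, 13 were lower (1.21% of all genes), or 6 without the library set term (0.46%). Nrp2, a receptor for semaphorins and VEGF, had 92.8, 108 and 131 CPM with 9-cis retinoic acid, against 151, 144 and 156 CPM with the joint treatment, without overlap (-0.45 ± 0.14). Itga2, a collagen-binding integrin, and Tenm1, a teneurin, had -0.81 ± 0.48 and -1.25 ± 0.59, and the values depend on single libraries. Itga2 had -1.52 without 9-cis retinoic acid replicate 3, -0.49 without 9-cis retinoic acid replicate 2 and -0.26 without joint replicate 3. Tenm1 had -1.94 without 9-cis retinoic acid replicate 3 and -0.42 without joint replicate 3. The imprinted RNA H19 was highest in the 5-library set in both treatments, with 597, 102 and 157 CPM with 9-cis retinoic acid, against 203, 923 and 199.5 CPM with the joint treatment (-0.64 ± 0.25). The kinase gene Pim3 had -0.06 ± 0.18.

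**Figure D5:**
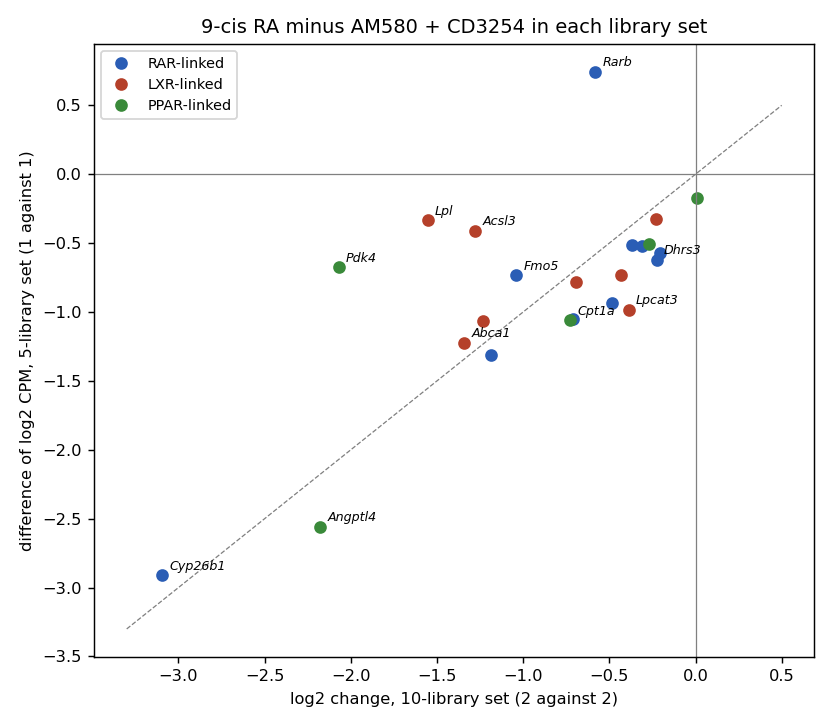
Log2 change of the named genes, 9-cis retinoic acid minus joint treatment, in the 10-library set (2 libraries each, horizontal) and in the 5-library set (1 library each, vertical, no test); the dashed line marks equal values. Most genes lie below 0 on both axes, near the line for Cyp26b1 (-3.09 and -2.91) and Angptl4 (-2.18 and -2.56), while Rarb lies above 0 in the 5-library set (0.74).

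The treatment difference was also tested for a dependence on the library set, with the interaction of the contrast and the set added after the data were seen. In edgeR 0 genes passed, 348 had an unadjusted p under 0.05 and the smallest FDR was 0.994, with 1 library per treatment in the 5-library set. Other lists gave few members past an unadjusted p of 0.05, where 1.21% of all genes were lower and 2.18% higher. With shares that low, a count of 0 in lists of 16 to 31 genes is not a result about their members. None of 27 acinar enzymes and secretory products, none of 31 hypoxia-induced genes, none of 22 cell cycle genes and none of 16 immediate early genes was past it in either direction. Of 25 cholesterol genes Stard4 (-0.33 ± 0.12) and Hmgcs1 (-0.26 ± 0.11) were lower at that p (1.21% of all genes). Of 9 acinar transcription factors Ptf1a (0.35 ± 0.15) was higher (2.18% of all genes). Each had an FDR of 0.888. With library weights 1 of the acinar enzymes and secretory products was called higher (0.0717% of all genes) and 0 lower. Within both library sets 5 of these 27 lay above the joint treatment (9.86% of all genes) and 0 below (7.49%). The ductal keratin Krt19 had 1.33 ± 0.61 and only 0.11 without 9-cis retinoic acid replicate 3. Of 5 tested targets of other RXR partners, Klf9, a thyroid hormone and glucocorticoid target, had -0.63 ± 0.22 and -0.38 without that library.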

How the data were processed

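Raw counts of reads per Ensembl gene were deposited for 15 libraries. The authors used FastQC, HISAT2 2.2.1, SAMtools 1.18 and HTSeq with mm10, per the submitters' processing notes. The sources used here do not give the annotation release, strand setting or library kit, so overlapping, antisense and near-identical genes may share reads. Of 43432 genes, 42462 matched a symbol. The 5 counter rows without a gene stayed out. Gene positions follow GENCODE M21 (GRCm38).

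Genes were kept by filterByExpr (16736), scaled by TMM and fitted with edgeR 4.0.16 (robust quasi-likelihood, R 4.3.3) over all 15 libraries, with group and library set as terms. The set is the side of 0 on which a library lay on principal component 1 of log2 CPM, computed with a prior count of 2. Residual degrees of freedom were 9 with the set term and 10 without it, and the median tagwise coefficient of variation was 0.193 with it and 0.305 without it. Tests were two-sided with Benjamini-Hochberg adjustment over all genes tested (FDR, threshold 0.05). SE were derived from F statistics, and intervals hold 95%. Because no label names separate cultures, p-values reflect only the spread of these libraries, which may be technical. DESeq2 1.42.0 and limma 3.58.1 gave alternatives, and the scripts were tested on simulated data. rRNA-like genes are annotated rRNA genes and gene models that collect rRNA reads.

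Members, gene lists and tests were chosen with earlier results of these data known. Named genes are those past FDR 0.05 that average at least 1 CPM (at most 15 each way), the markers Cyp26b1, Angptl4 and Cpt1a, and fixed receptor, retinoid, lipid and joint-treatment genes. Acadl, Acot1, Acot2, Elovl5, Acaca, Gramd1b, Utp14b, Trib3, Stard4, Hmgcs1, Ptf1a, Krt19, Klf9, Oasl1 and Ppp1r15a were named after their values were seen. Alternatives were other scalings, filters, tests and sample sets, each library left out, and the replicate number as a block. A few members of the lists are not reported here by name.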

Additional observations from a re-analysis of the deposited data

How the results depend on the processing

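The count of 1 gene past FDR 0.05, and Cyp26b1 as that gene, held with RLE scaling, without a filter, with a filter of 1 CPM, without rRNA-like genes and without any 1 of the 6 libraries. The count became 0 without the library set term, in DESeq2 without the term, in the 6 compared libraries alone, in the 10-library set alone and without 9-cis retinoic acid replicate 3 and the term together. It became 6 in DESeq2 with the term, 7 without 9-cis retinoic acid replicate 3 and AM580 replicate 1, and 51 with library weights. In the settings that gave 0, Cyp26b1 had -2.95, -2.96, -3.02 (FDR = 0.0545), -3.09 (FDR = 0.0916) and -2.81, in that order. Over the fits that each leave out 1 library its change was between -3.29 and -2.79. Angptl4 passed at -2.33 in DESeq2, -2.13 without those 2 libraries and -1.96 with weights, and Cpt1a at -0.83, -0.90 and -0.87 in the same settings. Rarb ranged from -0.43 to 0.081 when 1 library was left out, above 0 without 9-cis retinoic acid replicate 2, and had 0.74 in the 5-library set. Plin2 had 0.0089 in the 10-library set and ranged from -0.15 to 0.021 when 1 library was left out, above 0 without joint replicate 1. The median of the RAR targets was -0.20 in the 5-library set, that of the LXR targets -0.55 with weights and that of the PPAR targets -0.070 without 9-cis retinoic acid replicate 3 and the term together. The median of the genes ranked first for AM580 was -0.19 in the 5-library set and between -0.17 and 0.020 when 1 library was left out. The causes were not tested.

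Whether replicate numbers pair the libraries could not be decided, because the correlations do not separate number from library set. The smaller set held replicate 1 of 9-cis retinoic acid, AM580, CD3254 and DMSO, but replicate 2 of the joint treatment. The deviations of same-numbered libraries correlated at -0.42, -0.60 and 0.35. The number 1 and number 2 libraries correlated best with the other number, at 0.63 and 0.66, each time within the same library set. The number 3 libraries correlated best with each other. With the replicate block and no library set term the count was 0 and the change of Cyp26b1 -3.24, and with the block and the term the count was 1. The shallow depth of 9-cis retinoic acid replicate 3 limits what that library adds for low genes.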

Other observations

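Interferon-stimulated genes lay mostly above the joint treatment with 9-cis retinoic acid. Of 22 tested, 18 lay above 0, where 8968 of all 16736 genes did. The median was 0.23, or 0.42 without 9-cis retinoic acid replicate 3, against 0.02 and 0.03 for all genes. Within both library sets 5 lay above the joint treatment, where 9.86% of all genes did. Against DMSO the median was -0.29 with 9-cis retinoic acid and -0.56 with the joint treatment. Oasl1, an antiviral gene of the oligoadenylate synthetase family, was the only member past an unadjusted p of 0.05 (0.55 ± 0.20, FDR = 0.888). At that p 2.18% of all genes were higher and 1.21% lower, and 0 members passed with library weights. Of 20 genes of the unfolded protein and integrated stress responses 15 lay above 0 (8968 of all 16736 genes), with a median of 0.14. Ppp1r15a, which restores translation after stress, had 0.31 ± 0.13. The imprinted zinc finger gene Zim1 had 9.89, 2.43 and 5.13 CPM with 9-cis retinoic acid, against 6.31, 14.2 and 9.54 CPM with the joint treatment (-0.90 ± 0.35, FDR = 0.888). These genes were picked after their values were seen, and no explanation was tested.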
